A study of Mus musculus with 4 samples.

Results

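Replication-dependent histone genes code for the core histones H2A, H2B, H3 and H4 and the linker histone H1 that package newly made DNA during S-phase. Their short mRNAs carry no poly(A) tail and end in a conserved stem-loop, which the stem-loop binding protein Slbp recognizes. In mouse they lie in 4 clusters, Hist1 to Hist4. The genes described here were all protein-coding genes of GENCODE vM21 on chromosomes 1 to 19 whose symbol starts with Hist1h, Hist2h, Hist3h or Hist4h, 67 of 20807 coding genes. Each was given the replication timing (RT) of the 50 kb bin that holds its annotated start, and all 67 had a value, in 16 bins.

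Population-based RT came from diploid F121-9 cells, a hybrid cas/129 mouse embryonic stem cell (mESC) line grown in N2B27+2i+LIF. Repli-seq labels nascent DNA with BrdU, sorts cells by DNA content, and sequences the labeled DNA of an early and a late fraction of S-phase. Each fraction had replicates 1 and 2, which makes 4 libraries, and the design holds no treatment or genotype contrast. RT is the log2 of early over late RPM (reads scaled to the size of each library), so a bin above 0 is called early here and any other bin late. A single RT column was deposited for this line. Its name gives neither a replicate nor a fraction, and how the libraries entered it is not given in the sources used here. No spread between replicates, read depth or test between samples can therefore be given, and all values below describe this profile. Noise from bin to bin had an SD of 0.155, estimated from 19284 bins where RT is nearly flat, and covers no difference between cultures. Neighboring bins were taken to differ when their RT differed by over 0.44, which is 2 SD of a difference.

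The gene symbols were checked against the sequence that defines the class. A histone stem-loop (16 letters on the strand of the gene, with 6 complementary stem pairs that start with GG, end with CC and close on a T and A pair around a loop TNTN) stood within 300 bases after the stop codon of 65 of the 67 genes. The exceptions were Hist1h2an and Hist2h2be. Over all coding genes with an annotated stop codon the share was 0.339%, and 5 genes outside the clusters had one, Ttc14, Nova2, Nectin2, Gm9507 and H2afx, which codes for the variant H2A.X. There were 8 different stem-loops. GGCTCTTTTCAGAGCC stood in 41 genes, 28 early and 13 late, and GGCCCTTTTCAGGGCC in 8 genes, all of them H4. The following examples run from RT 2.18 to -1.94 and leave out the highest RT of the clusters, 2.87. The stem-loop is in capitals with 5 bases on either side, read from GRCm38.p6:
Hist1h4h (RT 2.18): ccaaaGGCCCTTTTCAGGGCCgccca
Hist1h2ag (RT 2.02): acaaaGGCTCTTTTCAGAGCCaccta
Hist4h4 (RT 0.22): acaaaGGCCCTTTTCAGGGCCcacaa
Hist1h4c (RT -1.21): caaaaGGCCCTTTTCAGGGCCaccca
Hist1h2ab (RT -1.94): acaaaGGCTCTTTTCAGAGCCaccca
Hist1h4b (RT -1.94): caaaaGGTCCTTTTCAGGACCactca
The stem-loop of Hist1h4h lies at chr13:23531458-23531473 on the plus strand, that of Hist4h4 at chr6:136803998-136804013 on the minus strand and that of Hist1h4b at chr13:23757366-23757381 on the plus strand. Hist1h4h, Hist4h4 and Hist1h4c shared all 16 letters and lie in an early, an intermediate and a late bin. Of the 8 genes with these letters 7 had RT above 0, and Hist1h4c was the only late gene among them. This count and the 28 of 41 genes above stand beside 74.1% early of all coding genes. Whether a stem-loop goes with RT was not tested.

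The histone genes were spread over both sides of RT 0. RT was above 0 for 45 of 67 genes, or 67.2%, while 74.1% of all coding genes with a value were early. The exact 95% binomial interval of the former was 54.6% to 78.2% and covers counting only. It treats the genes as independent although they share 16 bins, so it is too narrow. The other 22 were late, compared with 25.9% of all coding genes. These shares of early and late genes are near those of all coding genes. The count of genes with RT above 0 was between 40 and 46 when bins were assigned to genes in other ways. RT was above 1 for 28 histone genes and for 65.6% of all coding genes. The median RT of the histone genes was 0.79, with quartiles of -0.57 and 2.02 and a range from -1.94 to 2.87. All coding genes had a median of 2.35 and quartiles of -0.13 and 3.33. Only the 3 genes of 1 Hist2 bin lay above the median of all genes, and 0 lay above its upper quartile. RT between -2 and 2 was found for 47 of 67 histone genes, in 12 of their 16 bins, compared with 32.2% of all coding genes and 37.6% of all bins. The other histone genes were all above 2. Of the 47 genes 44 were in the Hist1 cluster, while 0 of the 10 Hist2 genes were in this range. The count therefore mainly describes Hist1.

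**Figure D1:**
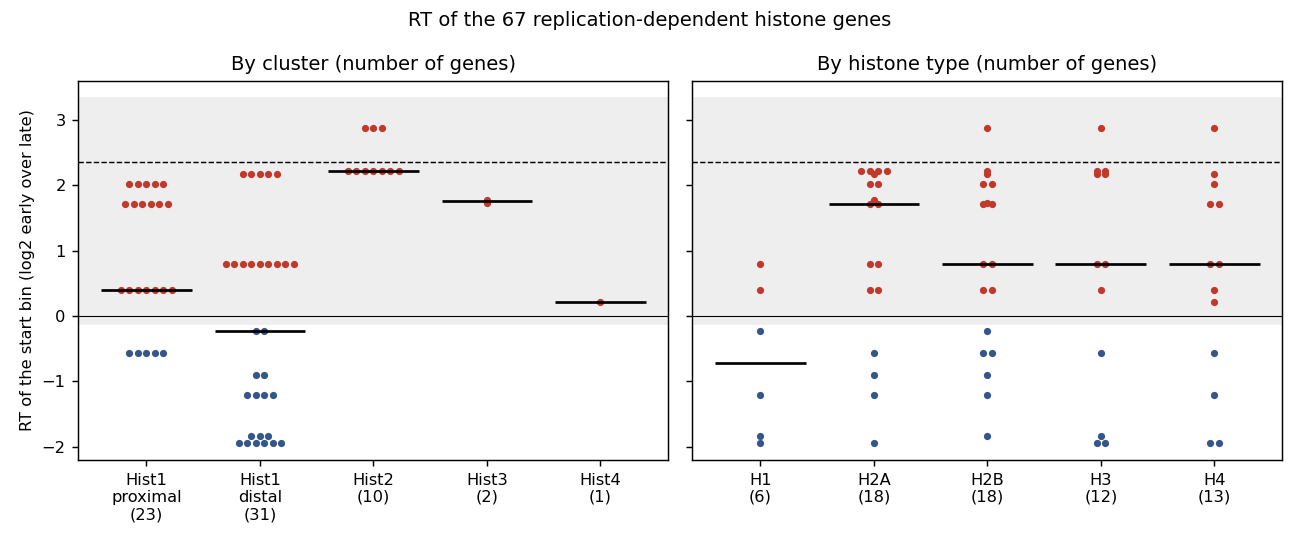
RT (log2 early over late) of the start bin of each of the 67 histone genes, by cluster on the left and by histone type on the right, with 1 point per gene (red above 0, blue at or below 0) and a bar at each median. The gray band and dashed line are the quartiles and median (2.35) of all coding genes, and the genes drawn in blue are in the Hist1 cluster, where RT reaches -1.94.

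The 22 late genes were all in Hist1, on chromosome 13, which held 54 genes, 32 early and 22 late, with a median RT of 0.40. The files do not say whether a position is the start or the end of its bin. It was read as the start, and read as the end, 27 genes were late, among them Hist4h4 at -0.17. With positions read as bin starts, all 10 Hist2 genes on chromosome 3, both Hist3 genes on chromosome 11 and Hist4h4 on chromosome 6 were early. Genes of a bin share its RT, so the 67 genes gave 16 independent readings at most. Ranked by RT, these bins fell into 5 levels separated by steps beyond noise. The lowest level, from -1.94 to -1.84, held 9 genes in 2 bins and the next, from -1.21 to -0.23, held 13. A level from 0.22 to 0.79 held 17 genes and one from 1.72 to 2.21 held 25, the most of any level. Hist2h4, Hist2h3b and Hist2h2bb stood alone at 2.87. Inside a level, bins next to each other in rank did not differ beyond noise, so Hist1h2bq at 1.72, Hist3h2ba at 1.73 and Hist3h2a at 1.77 have no order. Bins farther apart in rank within a level can differ beyond noise, as -1.21 and -0.23 do. The step from -0.23 to 0.22 only just exceeded the limit of 0.44, and both values are within 2 SD of bin noise from 0.

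Hist1 consists of a pair of groups with 1450 kb between them, here called proximal (23 genes, closer to the centromere) and distal (31 genes). Genes were put in separate groups where neighboring starts were over 500 kb apart. In the proximal group, 18 genes were early and 5 late, with a median RT of 0.40. In the distal group, 14 were early and 17 late, with a median of -0.23. RT crossed 0 inside both groups, and within each of them histone genes on one side were early and those on the other late. For the proximal group this was lost with positions read as bin ends, where all 23 genes were early and the 5 late ones had RT 0.40. The distal group then had 5 early and 26 late genes.

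**Figure D2:**
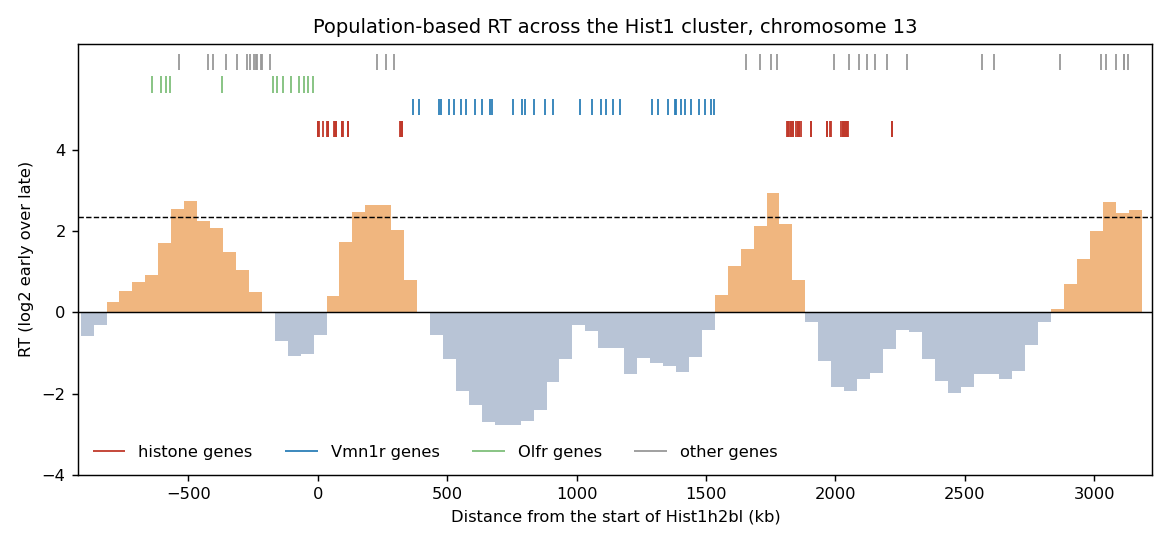
RT (log2 early over late) in 50 kb bins across the Hist1 cluster against the distance from the start of Hist1h2bl in kb, early bins in orange and late bins in blue, with ticks above for the starts of histone, Vmn1r, Olfr and other coding genes and a dashed line at the median of all coding genes (2.35). The early genes of both histone groups lie in early domains that peak at 2.64 and 2.94 in bins where no histone gene starts, and 5 proximal and 17 distal genes lie in the late domains beside them.

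The proximal group spanned 327 kb. Its first bin, chr13:21700001-21750000, had RT -0.57 and holds the starts of Hist1h2bl, Hist1h2ai, Hist1h3h, Hist1h2bm and Hist1h4j. It closes a late domain of 200 kb whose other bins hold olfactory receptor (Olfr) genes. The next bin had RT 0.40, with 7 genes: Hist1h4k, Hist1h2ak, Hist1h2bn, the linker histone gene Hist1h1b, Hist1h3i, Hist1h2an and Hist1h2bp. By linear interpolation between bin centers RT crossed 0 near Hist1h2bn, at about 21754294, but bins of 50 kb do not resolve this to a single gene. The third bin had RT 1.72 and holds Hist1h2bq, Hist1h2ao, Hist1h4m, Hist1h4n, Hist1h2ap and Hist1h2br. RT then reached 2.46, 2.64 and 2.64 in 3 bins without a histone gene, where the zinc finger gene Zfp184 and Pom121l2 start. It was 2.02 in the last bin of the group, which holds Hist1h2ah, Hist1h2bk, Hist1h4i, Hist1h2ag and Hist1h2bj beside the serine protease gene Prss16. The early domain around these genes was 400 kb long, from 21750001 to 22150000.

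The distal group spanned 403 kb and ran the other way, from early to late along the chromosome. Hist1h4h, Hist1h2af, Hist1h3g, Hist1h2bh and Hist1h3f had RT 2.18, in the bin next to the local maximum of 2.94 at the butyrophilin genes Btn1a1 and Btn2a2. In the following bin RT was 0.79 for 9 genes, the most in any bin: Hist1h4f, Hist1h1d, Hist1h3e, Hist1h2ae, Hist1h2bg, Hist1h2bf, Hist1h2ad, Hist1h3d and Hist1h4d. Hist1h2be and Hist1h1e had RT -0.23, within 2 SD of bin noise (0.31) from 0. The annotated start of Hist1h2be lies 1 bin away from its start codon, and the bin of the start codon had RT 0.79, so whether this gene is early depends on which of them is used. RT fell further to -1.21 for Hist1h2ac, Hist1h2bc, Hist1h1t and Hist1h4c and to -1.84 for Hist1h1c, Hist1h3c and Hist1h2bb. The bin of Hist1h1c also holds Hfe, the gene of hereditary hemochromatosis. The lowest RT of any histone gene, -1.94, was that of Hist1h2ab, Hist1h3b, Hist1h4b, Hist1h4a, Hist1h3a and Hist1h1a, in chr13:23750001-23800000. Of all coding genes 86.8% had a higher RT, and of all autosomal bins 60.7%. After 4 genes of the Slc17a transporter family, RT was -0.91 for the last pair, Hist1h2ba and Hist1h2aa. The first 14 genes of the distal group lay in an early domain of 350 kb and the other 17 in a late domain of 950 kb.

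RT changed steeply across both groups. Between directly neighboring bins with histone genes, 7 of 9 differences exceeded noise. The exceptions were the step from -1.84 to -1.94 and that between the Hist3 bins. How many of all autosomal neighboring bins differ beyond noise was not counted, so this count alone does not show a steep change. Over all autosomal windows of 100 kb, or 2 bins, the median range of RT was 0.264. A range as wide as the Hist2 step was found in 8.56% of them, and one as wide as the Hist3 step in 92.5%. A line through 5 bins had its steepest slope in the distal group at -21.4 log2 per Mb, and 0.194% of all autosomal windows of 450 kb held a slope as steep. In the proximal group it was 18.6 log2 per Mb, and 0.462% of windows of 350 kb held one. The median over such windows was 8.36 and 7.63 log2 per Mb. The range of RT over the distal group, 4.11, was matched by 5.33% of windows of its length, and that over the proximal group, 3.21, by 6.63%. These are descriptions of 1 profile and no test was made.

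Between the groups, from 22050001 to 23500000 on chromosome 13, 22 of 29 bins were late and the median RT was -1.12, with a minimum of -2.77. Over all autosomal bins 27771 of 47928 were late, with a median of -0.85 and quartiles of -3.11 and 1.86. The median of the gap thus lay between these quartiles and near that of all bins. Of the 40 coding genes that start there, 36 were Vmn1r genes, which code for pheromone receptors of the vomeronasal organ, from Vmn1r188 to Vmn1r223. They had a median RT of -1.24, and 34 were late, compared with 25.9% of all coding genes. The other 4 genes lay at the distal end with RT from 1.56 (Zfp322a) over 2.12 (Abt1) to 2.94 (Btn1a1 and Btn2a2). The histone genes that face this gap were early on both sides, at 2.02 and 2.18, and the late Hist1 genes were all on the sides that face away from it. With positions read as bin ends the genes that face the gap were lower, at 0.78 and 0.79, and the proximal group had no late gene.

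The smaller clusters lay in other surroundings. Hist2h2ab, Hist2h2ac, Hist2h2be, Hist2h3c2, Hist2h2aa2, Hist2h2aa1 and Hist2h3c1 had RT 2.21 in chr3:96200001-96250000, and Hist2h4, Hist2h3b and Hist2h2bb had RT 2.87 in the next bin. The latter 3 were the earliest of the class, while the other 7 did not differ beyond noise from Hist1h4h and the 4 genes of its bin at 2.18. Hist2 lay inside an early domain of 3050 kb whose RT reached 3.93. RT was 0.94 or higher in all 42 bins within 1 Mb of the cluster. Hist3h2ba (1.73) and Hist3h2a (1.77), on chr11:58900001-59000000, were in an early domain of 4350 kb, 155 kb from its border. Hist4h4 had RT 0.22 in chr6:136800001-136850000, the last bin of an early domain of 600 kb. By interpolation RT crossed 0 at about 48.4 kb from the start of Hist4h4, near Art4, which bins of 50 kb do not resolve to a single gene. The value for Hist4h4 is within 2 SD of bin noise from 0. H2afj, a histone variant gene, starts in the same bin. Over the autosomes, early domains had a median length of 600 kb, so those of Hist1 were shorter and those of Hist2 and Hist3 longer.

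**Figure D3:**
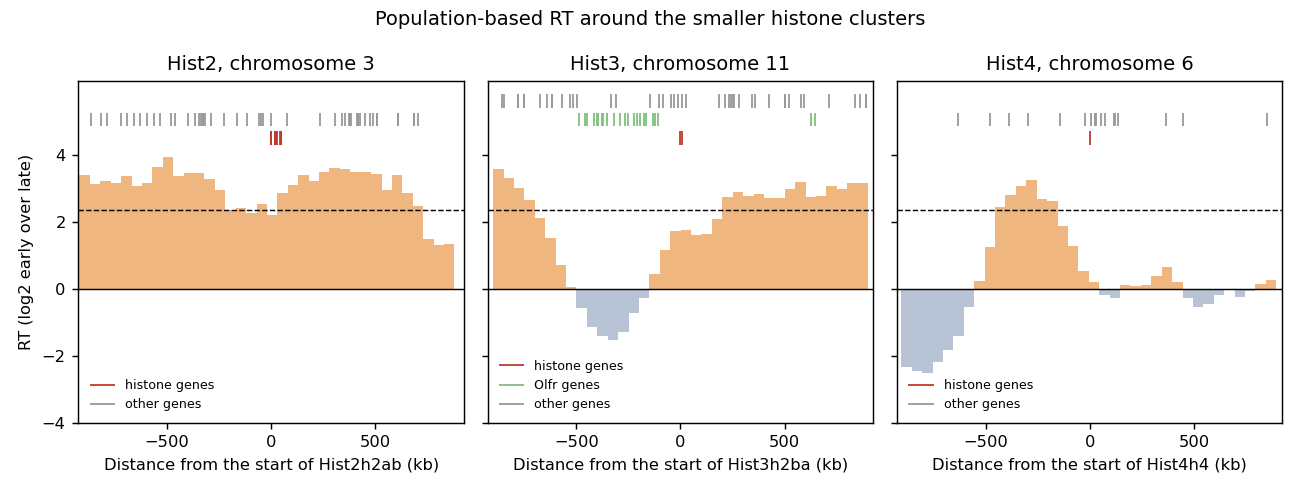
RT (log2 early over late) in 50 kb bins within 900 kb of the Hist2, Hist3 and Hist4 clusters, against the distance from the first histone gene of each in kb, with ticks for gene starts as labeled in each panel and a dashed line at the median of all coding genes. Hist2 lies inside a wide early domain (2.21 and 2.87), Hist3 on its shoulder (1.73 and 1.77) and Hist4h4 (0.22) where RT approaches 0.

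All 5 histone types were found on both sides of RT 0. The core histone genes had medians of 1.72 (H2A, 14 of 18 early), 0.79 (H2B, 12 of 18), 0.79 (H3, 8 of 12) and 0.79 (H4, 9 of 13). The early shares of these 4 types, from 66.7% to 77.8%, were near that of all coding genes, 74.1%. The linker histone genes had the lowest median, -0.72, with 2 of 6 early. Hist1h1d had RT 0.79 and Hist1h1b 0.40, while Hist1h1e was at -0.23 (within noise of 0), Hist1h1t at -1.21, Hist1h1c at -1.84 and Hist1h1a at -1.94. The H1 genes are all in Hist1 and share bins with core histone genes, so type and position cannot be told apart. Of the clustered genes known for expression in testis, Hist1h1t had RT -1.21 and the TH2A and TH2B genes, Hist1h2aa and Hist1h2ba, -0.91. Outside the clusters, the testis linker histone genes H1fnt and Hils1 were early, at 1.22 and 3.07. This set was chosen after the values were seen.

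Genes coding for the same protein lay in bins of different RT. The coding sequences of the 13 H4 genes, translated from the genome, gave 1 protein of 103 residues from 12 different coding sequences, and these genes lay in 10 bins of 3 clusters with RT from -1.94 to 2.87. The most common H3 protein was encoded by 7 of 12 genes, 5 early and 2 late, with the same range of RT. Hist2h3c1 was not among these 7, while Hist2h3c2 was. The annotated coding start of Hist2h3c1 lies farther from its stem-loop, so the count depends on the annotated coding sequence. The most common H2A protein came from 9 of 18 genes in 7 bins of Hist1, with RT from -1.94 to 2.02. H2B genes gave 12 different proteins and the 6 H1 genes gave 6. H2A and H2B genes often stand head to head, and 12 such pairs, with 1 more of H2B and H3, had starts 176 to 660 bases apart. Pairs were limited to starts up to 1000 bases apart, so a shared 50 kb bin was nearly fixed in advance. Both genes of all 13 pairs were in the same bin, 10 pairs early and 3 late, while 74.1% of all coding genes were early.

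Promoters were compared over the 300 bases from 250 before to 50 after the start of 62 histone genes with a RefSeq entry (GRCm38.p6). The 5 not matched were Hist1h3f, Hist1h2bc, Hist1h3a, Hist2h2be and Hist2h4. Motifs were searched on both strands, none of them is contained in another, and a match describes the letters only. Head-to-head H2A and H2B genes start 176 to 306 bases apart, so their searched stretches overlap. A single match can then count for both genes, and the H2A and H2B counts below are not independent. CCAAT was found for 53 genes (37.3% of all promoters hold it), in 35 of 42 early and 18 of 20 late genes. By type, it was in every H1, H2A, H2B and H3 promoter searched but in only 3 of 12 H4 promoters. TATAAA was found for 35 genes (13.6% of all promoters), 24 of 42 early and 11 of 20 late. ATTTGCAT, the octamer bound by Pou2f1 (Oct-1), was found for 7 of 18 H2A and 6 of 16 H2B genes and for no H1, H3 or H4 gene, compared with 1.75% of all promoters. GGTCCG, chosen after the sequences were seen, was in 11 of 12 H4 promoters on the coding strand and in 8.34% of all promoters. The letters are part of the H4 promoter element that Hinfp is known to bind. They are shown in capitals with 12 bases on either side for early, intermediate and late H4 genes:
Hist1h4h (RT 2.18): agtcttcaatcaGGTCCGaaaacactgcat
Hist1h4i (RT 2.02): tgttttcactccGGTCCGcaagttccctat
Hist1h4d (RT 0.79): ggttttcaaacaGGTCCGcattggtattat
Hist4h4 (RT 0.22): tgttttcaatcaGGTCCGctcccaggaaat
Hist1h4j (RT -0.57): ggttctcatttcGGTCCGcccgctacagta
Hist1h4c (RT -1.21): agttttcaaccaGGTCCGcagaaggcctat
Hist1h4b (RT -1.94): agttctcaaccaGGTCCGataagagcctat
The capitals of Hist1h4h lie at chr13:23531039-23531044 on the plus strand and those of Hist4h4 at chr6:136804458-136804463 on the minus strand. The H4 promoter without these letters was that of Hist1h4a, which had RT -1.94. The letters were thus matched in both early and late H4 genes. They began up to 47 bases before the start used for the RefSeq promoter, except in Hist1h4b, where they began 6 bases after it. That start can differ from the GENCODE start used for RT. The GENCODE start of Hist1h4b is 23757013 on the plus strand, and the letters at 23756943-23756948 lie before it.

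GC content and gene density are known to be higher in early bins. The 16 bins with histone genes had a median GC content of 43.2%, compared with 41.4% over all autosomal bins. It was 45.0% in the 10 early and 42.2% in the 6 late ones, with ranges that overlapped (41.7% to 49.9% and 41.1% to 43.2%). Of all autosomal bins with at least 5 coding gene starts 90.6% were early, with a median RT of 3.50. Of the 9 histone bins of this density 7 were early, and their median RT was 0.79.

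Genes that work with histones were mostly early, and their counts stand beside 74.1% of all coding genes. Of 14 histone variant genes outside the clusters, listed as replication-independent, 14 had RT above 0, with a median of 3.31. One of them, H2afx, carries the stem-loop as the clustered genes do. The lowest was H2afj at 0.22, within noise of 0, and the highest H2afx at 3.74, and H3f3a and H3f3b, which code for H3.3, had 3.35 and 3.50. All 9 genes for transcription of histone genes were early with a median of 3.15, among them Npat, the coactivator of histone genes, at 2.65. Hinfp was highest at 3.74, in the bin that also holds H2afx, and Casp8ap2 lowest at 2.03. For histone mRNA 3′ end formation and turnover, 17 of 18 genes had a value (Cstf2 is on X and was not measured) and 17 were early, with a median of 3.41. Lsm10 of the U7 particle was highest at 3.90, Slbp had 3.75, and the exonuclease gene Eri1 was lowest at 0.10, within noise of 0. Of 15 histone chaperone genes 14 were early, with a median of 3.16. Daxx was highest at 3.88, and Asf1a was the late one at -0.56, while its paralog Asf1b had 3.44. These 4 lists together differed from the clustered histone genes in that each median exceeded that of all coding genes, 2.35, while the median of the clustered genes lay below it.

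**Figure D4:**
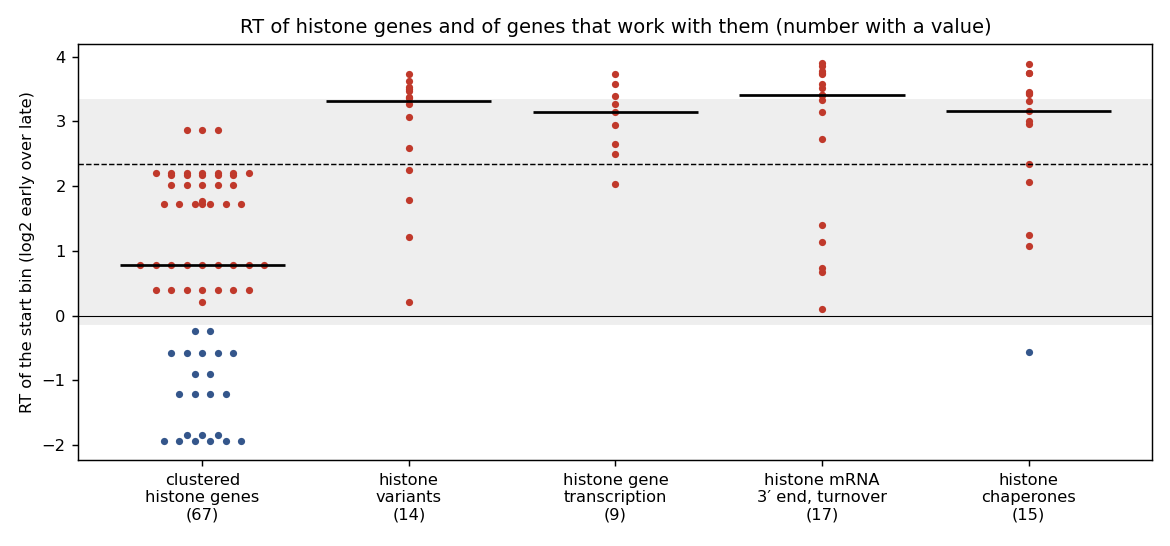
RT (log2 early over late) of the clustered histone genes and of 4 lists of genes that work with histones, with 1 point per gene (red above 0, blue at or below 0), a bar at each median, and the quartiles (gray band) and median (dashed line, 2.35) of all coding genes. The medians of the 4 lists lie from 3.15 to 3.41 and that of the clustered genes at 0.79.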

How the data were processed

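The authors deposited 1 log2 value of early over late RPM per 50 kb bin for the line of the 4 libraries. Per the labels, mm10, Bowtie2, SAMtools and bedtools were used, with no versions given. How the replicates entered this value, and any filter on bins or smoothing of this profile, are not given in the sources used here. Reads from near-identical histone gene copies cannot be placed uniquely, so the RT of such bins may rest on the remaining sequence.

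Bins of chromosomes 1 to 19 (47928 of 51427) were used. The deposited position was read as the bin start, which leaves 5 bins without assembled sequence, compared with 51 when it is read as the bin end. Genes were those of GENCODE vM21, and 75 coding genes had no RT. Slopes were least-squares fits over 5 bins, and noise was the scaled median absolute difference between a bin and the average of the bins beside it, over bins with a slope up to 2.5 log2 per Mb.

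The histone genes and lists were chosen with earlier results of these data known. Named were the highest and lowest gene of each group or list, all late genes and those below the median of all coding genes, all members of small groups, and families of other genes. On a simulated profile of 47928 bins, 1147 of 1164 crossings of RT 0 were recovered to within 25 kb, and a noise SD of 0.15 was recovered as 0.151. Analyses were run in Python 3.11.15 (pandas 2.3.3, numpy 2.4.6) and plots drawn with matplotlib 3.10.9.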

Additional observations from a re-analysis of the deposited data

How the results depend on the processing

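No paired analysis was possible because the single column names neither replicates nor fractions, and for that reason neither leaving out a replicate nor a replicate block was run. Depth is unknown. The share of early histone genes, 67.2%, was 41.8% with the cut at RT 1 and 4.48% with the cut at the median of all coding genes, as higher cuts must give. The share over all genes, 74.1%, was 72.9% with X and 70.7% with each bin counted once. The median of the histone genes was 0.60 with each bin once and 2.21 without Hist1. With each bin counted once the median of Hist1 turned to -0.23, and those of its proximal and distal groups and of Hist2 were 1.06, -0.91 and 2.54. Interpolated between bin centers, Hist1, its proximal group and Hist2 had 0.64, 0.73 and 2.45, and Hist1h4k (-0.0736), Hist1h2ak (-0.00907) and Hist1h2bn (-0.00332) turned late. With positions read as bin ends, Hist4h4 turned to -0.17, the 9 genes of the bin of Hist1h4f to -0.23 and the 5 of the bin of Hist1h2bl to 0.40, while the medians of the proximal and distal groups and of Hist2 were 1.72, -0.45 and 2.87. In that reading 15 genes changed sign, 48 others moved by more than bin noise and 4 stayed within it. A running median over 5 bins gave 2.52 for Hist2, 3.32 for the chaperones, and early domains of 3400 kb (Hist2) and 1000 kb (Hist4). With the cut at RT 1 the early domains were 250 kb for both Hist1 groups, 2850 kb for Hist2 and 4100 kb for Hist3, and Hist4 had none. The bin of the start codon, chosen after seeing the data, turned Hist1h2be to 0.79. Of the other summary values 66 moved by less than bin noise or counting error.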
